A study of Homo sapiens with 4 samples.

Results

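The genes described here are 8 neighbours on the long arm of chromosome 10 that lie between 42 and 46 Mb of the T2T-CHM13v2.0 assembly. They are the zinc finger genes ZNF22, ZNF32, ZNF239, ZNF485, ZNF487 and ZNF33B, the antisense gene ZNF22-AS1 and the gene RASSF4. They were taken by name from the 28775 genes of the count table, in which each was found inside the window by its Entrez identifier. The list was chosen by the counts of ZNF22, ZNF22-AS1, ZNF32 and ZNF239, which were higher in MORC2 KO than in WT, with the other 4 genes as their neighbours, so the difference between the genotypes in these genes is a description and no p-value is given for it. RNA with a poly-A tail was sequenced from 4 samples of HEK293T, a transformed human embryonic kidney line. The 2 MORC2 KO samples were bulk populations, not clones, made by electroporation of Cas9 protein with gRNA 1 (replicate 1) or gRNA 2 (replicate 2), and the 2 WT samples were independent replicates of the unedited line. The labels name no other treatment.

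MORC2 is an ATPase that binds and compacts DNA and acts with the HUSH complex in silencing. Zinc finger genes of the C2H2 type form one of the largest families of DNA-binding proteins in human cells. Each finger is a short loop held by a zinc ion that contacts a few bases, and the members of the family arose by repeated local duplication, so that they often sit in clusters. Many of them carry a KRAB domain, which recruits the corepressor TRIM28 and through it the methylation of histone H3 at lysine 9.

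The neighbourhood has 2 parts, as the map of exons shows. ZNF487, ZNF239, ZNF485 and ZNF32 lie in a row with alternating strands. ZNF487 is on the plus strand from 44317784 to 44364119, ZNF239 on the minus strand from 44437270 to 44455539, ZNF485 on the plus strand from 44487360 to 44498826 and ZNF32 on the minus strand from 44524781 to 44529800. The gap is 73.2 kb between ZNF487 and ZNF239, 31.8 kb between ZNF239 and ZNF485, and 25954 bases between ZNF485 and ZNF32. The other part begins 1.31 Mb beyond ZNF32 and holds RASSF4 on the plus strand from 45840766 to 45876855, ZNF22-AS1 on the minus strand from 45874896 to 45881759 and ZNF22 on the plus strand from 45881879 to 45886287. ZNF22-AS1 and ZNF22 are transcribed away from each other, with 119 bases between them. ZNF33B stands apart, on the minus strand from 43451702 to 43516055, and 802 kb separate it from ZNF487.

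**Figure D1:**
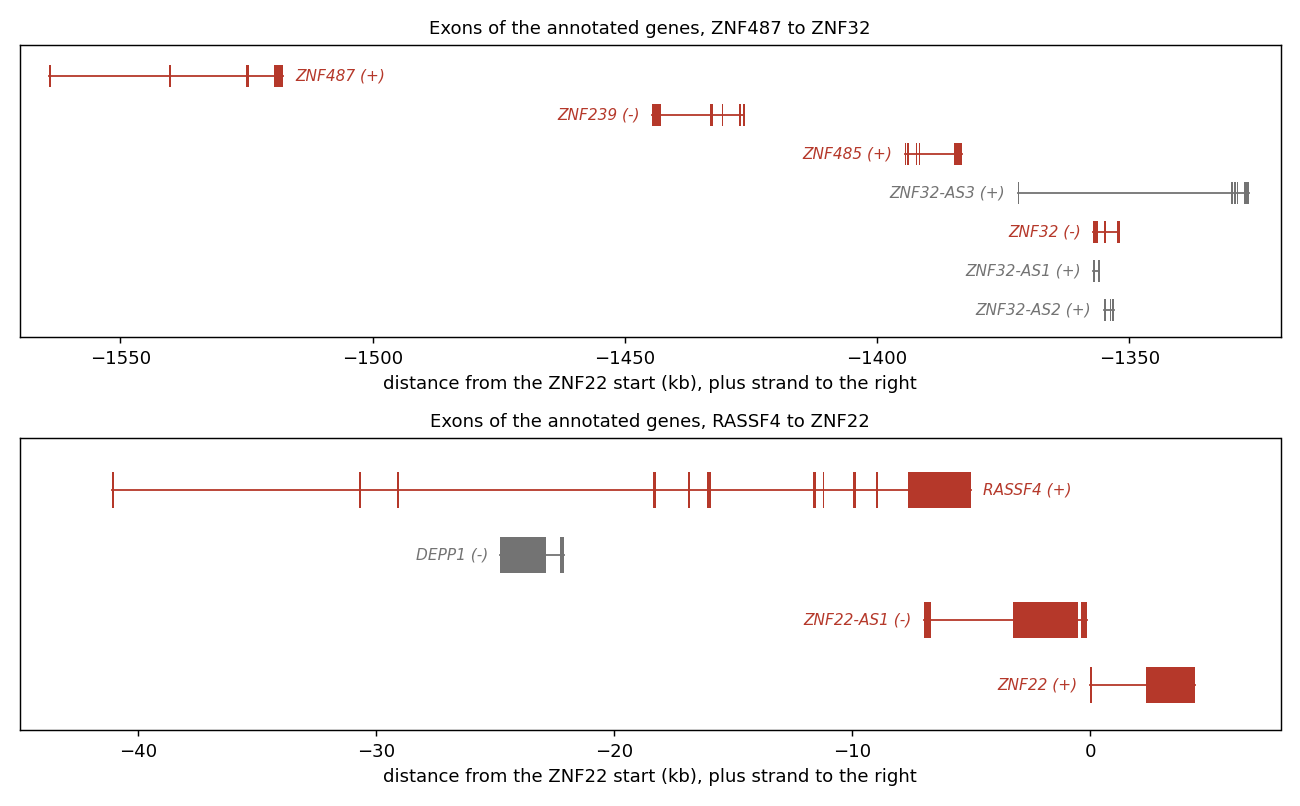
Exons (boxes) and introns (lines) of the annotated genes around ZNF487 to ZNF32 (upper panel) and RASSF4 to ZNF22 (lower panel), by distance from the start of ZNF22 in kb; the strand is in brackets, the listed genes are red and other genes grey. ZNF22-AS1 starts 120 bases from the start of ZNF22 and its far end overlaps the last exon of RASSF4.

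The exons of 3 of the 8 genes overlap another gene, which matters because the counting ignored strand and left out read pairs that fall on more than 1 gene. ZNF32 shares 481 of its 1480 exonic bases (32.5%) with the antisense genes ZNF32-AS1 and ZNF32-AS2. ZNF22-AS1 and RASSF4 share 275 bases, 8.41% of the former and 7.57% of the latter. ZNF22, ZNF239, ZNF485, ZNF487 and ZNF33B share no exonic base with another gene. Most of the coding sequence of each zinc finger gene lies in 1 exon, by the longest coding transcripts of GENCODE 29. ZNF22 (224 codons) and ZNF239 (458 codons) have a single coding exon. The longest coding exon holds 91.5% of the coding bases in ZNF32 (273 codons), 89.3% in ZNF33B (778 codons), 81.3% in ZNF485 (441 codons) and 78.7% in ZNF487 (208 codons). In RASSF4 (321 codons), which is no zinc finger gene, it holds 16.4% of them across 10 coding exons.

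The promoters are shown because ZNF22, ZNF239 and ZNF32 had nearly the same fold change while ZNF485 between them had a smaller one, and because ZNF22 and ZNF22-AS1 start beside each other. The windows of RefSeq on GRCh38.p14 run from 250 bases before to 50 bases after each start, and all 8 genes have at least 1 of them. The sequences are read 5′ to 3′ on the strand of the gene, and capitals mark matches on either strand to CCGGAAGT, the site of ETS factors such as GABPA, ACTACATTTCCCA with any base at the seventh and the eighth position, a site of ZNF143, or AAGATGG, the site of YY1. The GC box GGGCGG was searched on both strands as well and is not marked. The letters were chosen after the sequences had been read. The windows are chr10:45000673-45000972 on the plus strand for ZNF22, chr10:43574567-43574866 on the minus strand for ZNF239, chr10:43648832-43649131 on the minus strand for ZNF32 and chr10:43606188-43606487 on the plus strand for ZNF485, which lies between ZNF239 and ZNF32.
ZNF22: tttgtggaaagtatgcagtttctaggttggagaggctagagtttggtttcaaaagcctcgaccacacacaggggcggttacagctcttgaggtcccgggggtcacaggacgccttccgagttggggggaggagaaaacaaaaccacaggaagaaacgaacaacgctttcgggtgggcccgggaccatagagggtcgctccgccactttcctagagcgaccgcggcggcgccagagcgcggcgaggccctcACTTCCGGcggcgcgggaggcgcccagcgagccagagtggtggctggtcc
ZNF239: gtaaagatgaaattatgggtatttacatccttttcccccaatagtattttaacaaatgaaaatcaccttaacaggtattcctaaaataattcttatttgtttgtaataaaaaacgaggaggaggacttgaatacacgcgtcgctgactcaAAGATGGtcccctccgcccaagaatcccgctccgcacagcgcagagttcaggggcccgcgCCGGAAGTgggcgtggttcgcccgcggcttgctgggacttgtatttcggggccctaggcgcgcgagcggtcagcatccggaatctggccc
ZNF32: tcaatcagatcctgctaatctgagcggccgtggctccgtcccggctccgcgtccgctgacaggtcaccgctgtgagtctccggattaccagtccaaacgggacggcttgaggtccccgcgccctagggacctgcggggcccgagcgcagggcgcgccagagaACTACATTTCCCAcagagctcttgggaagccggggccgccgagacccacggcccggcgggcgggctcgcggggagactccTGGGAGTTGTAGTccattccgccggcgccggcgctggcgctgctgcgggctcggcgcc
ZNF485: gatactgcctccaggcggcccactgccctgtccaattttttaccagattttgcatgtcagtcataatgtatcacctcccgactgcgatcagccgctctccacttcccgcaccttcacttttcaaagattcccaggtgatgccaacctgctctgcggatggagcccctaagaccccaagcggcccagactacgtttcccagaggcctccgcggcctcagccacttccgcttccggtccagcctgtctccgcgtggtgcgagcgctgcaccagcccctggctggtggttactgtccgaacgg

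The ZNF22 and ZNF22-AS1 windows overlap by 219 bases and read the same DNA from opposite strands. The ETS-type letters in the ZNF22 window begin at its start site, counted as base 0, and the same 8 bases lie from -127 to -120 in the ZNF22-AS1 window. ZNF239 holds the ETS-type letters from -40 to -33 and the YY1 letters from -100 to -94. ZNF32 holds the ZNF143 letters at 2 places of the printed window, from -88 to -76 and, on the other strand, from -8 to 4. No full match to these 3 motifs occurs in the windows of ZNF33B, ZNF485, ZNF487 or RASSF4, and since the letters were chosen with the sequences in view, nothing is read from which genes hold them. With at most 1 letter changed, the ZNF143 letters also occur in ZNF485, from -64 to -52, and in ZNF239, from -8 to 4 on the other strand, against 3.10% of all windows. The ETS-type letters then also occur in ZNF485 and ZNF487, against 24.6% of all windows, and the YY1 letters in ZNF487, against 54.6%. Of 35116 RefSeq windows of 300 bases, 4.14% hold in full CCGGAAGT, 1.36% the ZNF143 letters and 5.84% AAGATGG. The GC box is in 45.0% of them, and in the windows of ZNF22, ZNF239, ZNF32, ZNF487 and RASSF4. The number of CpG dinucleotides was 25 in the ZNF22 window, 35 in ZNF22-AS1, 21 in ZNF239, 36 in the printed ZNF32 window, 18 in ZNF485, 20 in ZNF33B and 36 in RASSF4, each above the median of 14 over all windows. The 3 windows of ZNF487 had 29, 32 and 29.

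Each sample had between 53970043 and 64312514 counted read pairs in all, and TMM factors, which scale library sizes, lay between 0.986 and 1.03. Values in CPM are counts relative to the TMM-scaled library size. MORC2 itself was counted 3064 and 3637 times in the MORC2 KO samples against 5131 and 4669 times in WT (log2 fold change -0.71, standard error (SE) 0.06, edgeR adjusted p = 1.37e-04), so the RNA of the targeted gene was lower but present. A gene is said to be called where its adjusted p in edgeR is under 0.05. Summed over 4 genes of epithelium and embryonic kidney (KRT8, KRT18, PAX2 and EYA1) the level lay between 17.3 and 18.8 CPM in the 4 samples. Within this sum EYA1 had 8.51 and 8.73 CPM in MORC2 KO, against 7.18 and 7.67 in WT. KRT18 had 5.89 and 6.18 CPM against 6.55 and 6.80, and neither was called. Over 5 genes of blood and liver (PTPRC, CD3E, HBB, ALB and APOA1) the sum lay between 0.218 and 0.348 CPM. PTPRC, CD3E and HBB were at 0 or 1 count in each sample.

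ZNF22, a zinc finger gene without a KRAB domain, was the most abundant of the 8. Its counts in the MORC2 KO samples were 5870 and 5983, against 3304 and 3017 in WT, or 98.2 and 90.6 CPM against 55.5 and 56.7 CPM. Both MORC2 KO samples lay above both WT samples, with a mean of 94.4 ± 5.39 CPM (SD, n = 2) against 56.1 ± 0.820 (SD, n = 2), and the log2 fold change was 0.75 (SE 0.06). RNA was taken from whole cultures, so more cells with this RNA and more RNA per cell cannot be told apart.

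ZNF22-AS1, a long non-coding RNA gene on the other side of the same start region, had the largest fold change of the 8. Its counts in the MORC2 KO samples were 242 and 280, against 68 and 57 in WT, and in CPM they were 4.05 and 4.24 against 1.14 and 1.07. The groups did not overlap, and the level was 3.74 times as high in MORC2 KO, a log2 fold change of 1.90 (SE 0.17) that ranked 14 among the 16675 tested genes. ZNF22-AS1 counts were 4.12% and 4.68% of ZNF22 counts in MORC2 KO, and 2.06% and 1.89% in WT. The share was thus higher in both MORC2 KO samples. The difference between the genotypes in CPM per kb of exon was 18.2 for ZNF22 and 0.929 for ZNF22-AS1. Strand was ignored in the counting, so read pairs in ZNF22-AS1 exons could come from either strand.

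RASSF4, which overlaps the far end of ZNF22-AS1, encodes a protein with a Ras association domain. RASSF4 had few reads, with 39 and 62 counts in the MORC2 KO samples, against 38 and 42 in WT. In CPM these were 0.652 and 0.938 against 0.639 and 0.789, so that the groups overlapped. The log2 fold change was 0.17 (SE 0.29), and with MORC2 KO replicate 2 left out it turned to -0.12. The counts of ZNF22-AS1 were 179% and 136% of those of RASSF4 in WT but 621% and 452% in MORC2 KO.

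ZNF239 and ZNF32, both zinc finger genes without a KRAB domain, are 69.2 kb apart and had nearly the same fold change. ZNF239, also called MOK2, encodes a protein that binds DNA and RNA. Its counts in the MORC2 KO samples were 1168 and 1293, against 688 and 598 in WT. In CPM they were 19.5 and 19.6 against 11.6 and 11.2, so that the replicates lay close together and the groups far apart, and the log2 fold change was 0.78 (SE 0.08). ZNF32 had 1525 and 1558 counts in the MORC2 KO samples, against 832 and 800 in WT, or 25.5 and 23.6 CPM against 14.0 and 15.0 CPM. Its groups did not overlap either, and the log2 fold change was 0.76 (SE 0.08). ZNF239 counts were 76.6% and 83.0% of those of ZNF32 in the MORC2 KO samples, against 82.7% and 74.8% in WT, so that the ratio of the genes overlapped between the genotypes.

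ZNF485, a KRAB zinc finger gene, lies between ZNF239 and ZNF32 and had a smaller fold change than either. Its counts in the MORC2 KO samples were 611 and 666, against 484 and 377 in WT, and in CPM 10.2 and 10.1 against 8.13 and 7.08. The groups did not overlap, and the log2 fold change was 0.41 (SE 0.10). Set against ZNF485 in the same library, ZNF239 stood at 142% and 159% in WT but at 191% and 194% in MORC2 KO. ZNF485 was not called with all 4 samples. Its log2 fold change was 0.39 with MORC2 KO replicate 1 left out and 0.42 with MORC2 KO replicate 2 left out. It was 0.52 with WT replicate 1 left out and 0.32 with WT replicate 2 left out.

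ZNF487, a KRAB zinc finger gene at the outer end of the row, was weak in every sample. Its counts in the MORC2 KO samples were 111 and 108, against 103 and 71 in WT. At 1.86 and 1.63 CPM against 1.73 and 1.33 CPM, the groups overlapped, since WT replicate 1 lay above MORC2 KO replicate 2. The log2 fold change was 0.18 (SE 0.21).

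ZNF33B, a KRAB zinc finger gene on the other side of BMS1, RET and HNRNPF, was the second most abundant of the 8 by counts. It had 2736 and 3335 counts in the MORC2 KO samples, against 2289 and 2044 in WT, or 45.8 and 50.5 CPM against 38.5 and 38.4 CPM. The groups did not overlap, but the log2 fold change was only 0.32 (SE 0.06). It was called with all 4 samples and lost the call with WT replicate 1 or WT replicate 2 left out, where its log2 fold change stayed at 0.32. ZNF33B stood at 0.38 with MORC2 KO replicate 1 left out and at 0.25 with MORC2 KO replicate 2 left out. Its near copy ZNF33A, on the other side of the centromere, had a log2 fold change of 0.14 (SE 0.08, edgeR adjusted p = 0.419). Reads that fit several places were counted, so some reads of either gene could belong to the other, and whether the genes differed in response was not tested.

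**Figure D2:**
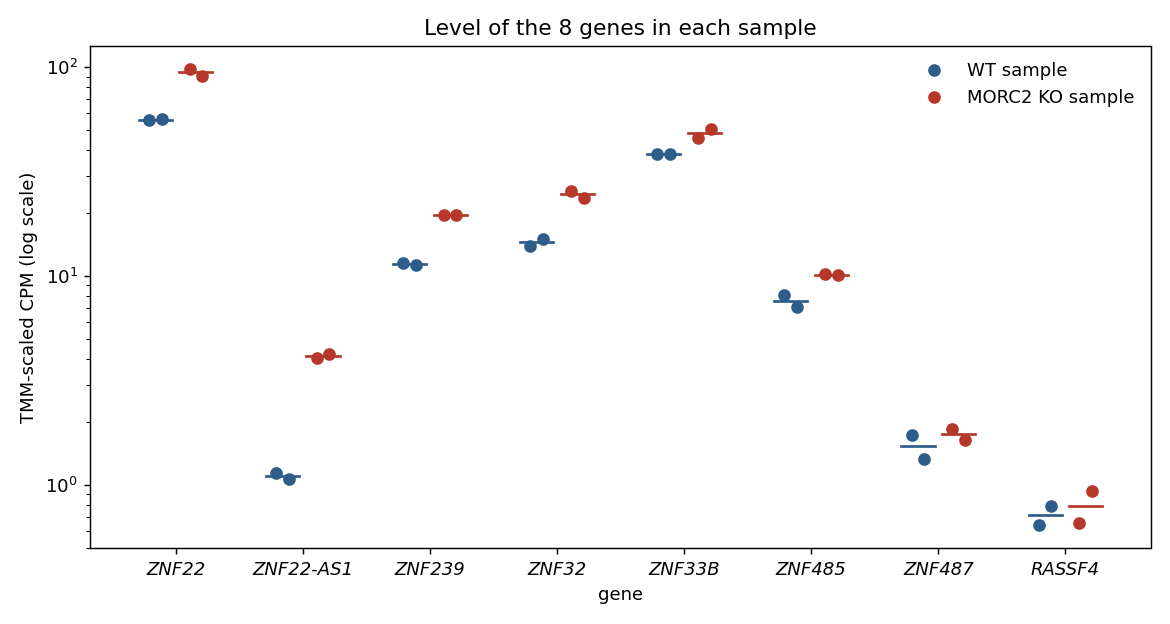
TMM-scaled CPM on a log scale for the 8 genes in the 2 WT samples (blue) and the 2 MORC2 KO samples (red), with a line at the mean of each group. Both red points lie above both blue points in 6 genes and overlap them in ZNF487 and RASSF4.

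Of the 8 genes, 5 were called higher at an adjusted p under 0.05 in edgeR (ZNF22, ZNF22-AS1, ZNF239, ZNF32 and ZNF33B), against 0.588% of all tested genes called higher and 0.618% called in either direction. Both MORC2 KO samples lay above both WT samples in 6 of the 8, against 24.1% of all tested genes. Both lay below in 0 of the 8, against 23.4% of all. The median log2 fold change was 0.58 over the 8 genes and 0.0054 over all tested genes. These counts describe genes that were listed for this difference and support nothing further.

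Each MORC2 KO library was also set against each WT library on its own. The 4 single ratios, on the log2 scale, ran from 1.82 to 1.98 in ZNF22-AS1, from 0.76 to 0.80 in ZNF239, from 0.68 to 0.82 in ZNF22 and from 0.65 to 0.87 in ZNF32. The last 3 of these ranges overlap. They ran from 0.31 to 0.53 in ZNF485 and from 0.25 to 0.39 in ZNF33B, below those of the other 4 genes. In ZNF487 they ran from -0.08 to 0.48 and in RASSF4 from -0.27 to 0.56, so that single pairs of libraries gave either direction. The 4 ratios of a gene reuse the same libraries and are not independent. The rise of ZNF22, ZNF22-AS1, ZNF32 and ZNF239 chose the list, so their place above the rest is a description and was not tested.

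Per length, in CPM per kb of exon, the WT levels ran in the order ZNF22 (26.6 ± 0.389, SD, n = 2, here and for the other genes), ZNF32 (9.80 ± 0.501), ZNF33B (4.69 ± 0.00553), ZNF239 (4.24 ± 0.0859), ZNF485 (3.73 ± 0.364), ZNF487 (0.624 ± 0.114), ZNF22-AS1 (0.339 ± 0.0155) and RASSF4 (0.197 ± 0.0293). In MORC2 KO the order was ZNF22 (44.8 ± 2.56), ZNF32 (16.6 ± 0.919), ZNF239 (7.27 ± 0.00932), ZNF33B (5.87 ± 0.407), ZNF485 (4.97 ± 0.0481), ZNF22-AS1 (1.27 ± 0.0412), ZNF487 (0.711 ± 0.0639) and RASSF4 (0.219 ± 0.0557). ZNF239 thus stood above ZNF33B in MORC2 KO and below it in WT, and ZNF22-AS1 likewise passed ZNF487. No neighbours in either order overlapped in their samples. Taken over the exonic bases that no other gene shares, ZNF32 stood at 24.6 ± 1.36 in MORC2 KO and 14.5 ± 0.742 in WT, with the same place in both orders.

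The 8 genes together came to 205.7 and 201.1 CPM in MORC2 KO, against 131.2 and 131.6 CPM in WT. The 32 other genes of the window came to 587 and 590 CPM in MORC2 KO and 609 and 585 CPM in WT, so that these sums overlapped. The sums hold differences in both directions. Mean CPM in MORC2 KO and WT was 81.7 and 56.1 for ZNF37BP, 194 and 218 for BMS1, and 220 and 233 for HNRNPF. ZNF22 alone made up 47.7% and 45.0% of the CPM of the 8 genes in MORC2 KO, against 42.3% and 43.1% in WT.

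Of the 32 other genes of the window, 12 had enough reads to be tested. None was called in edgeR or DESeq2, whereas 4 were higher and 1 was lower at an unadjusted p under 0.05 in edgeR. Over all 16675 tested genes, 1358 were higher and 1029 lower at that threshold. The median log2 fold change of the 12 tested genes of the window was 0.11. The 3 tested genes with ZNF symbols were the pseudogene ZNF37BP and the antisense genes ZNF32-AS1 and ZNF32-AS2. All 3 had positive values, as had 8593 of all 16675 tested genes. The 9 others ranged from -0.19 to 0.46 with a median of -0.01.

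ZNF37BP, a transcribed pseudogene of the KRAB zinc finger gene ZNF37A, is the nearest neighbour of ZNF33B and had the smallest p of these genes. Its counts in the MORC2 KO samples were 4222 and 6136, against 3728 and 2640 in WT. The means were 81.7 ± 15.7 CPM (SD, n = 2) and 56.1 ± 9.23 CPM (SD, n = 2). The samples of each group lay far apart, and the log2 fold change of 0.54 (SE 0.12) had an adjusted p of 0.0776 in edgeR. It was called with the replicate number in the model, a fit in which 237 genes were called higher and 42 lower. It was also called without a filter on low counts, where 463 were called higher and 182 lower. With the replicate numbers crossed between the groups, a fit chosen after seeing the data, it was called as well, beside 903 higher and 809 lower. The call was also present with any one sample left out, where a lone sample is assumed to vary like the other group. ZNF37A itself, on the other side of the centromere, had a log2 fold change of 0.19 (SE 0.07, edgeR adjusted p = 0.247), and some reads could belong to either gene.

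The antisense genes ZNF32-AS1 and ZNF32-AS2 had more counts in each MORC2 KO sample than in either WT sample, and neither was called. ZNF32-AS2 had 75 and 136 counts in the MORC2 KO samples, against 48 and 45 in WT, and its log2 fold change was 1.01 (SE 0.27, edgeR adjusted p = 0.153). ZNF32-AS1 had counts of 15 and 14 against 5 and 6, a log2 fold change of 1.22 (SE 0.54, edgeR adjusted p = 0.331). ZNF32-AS3, which spans ZNF32 without sharing an exonic base, had at most 2 counts in a sample. ZNF32-AS2 counts were 4.92% and 8.73% of those of ZNF32 in the MORC2 KO samples, against 5.77% and 5.63% in WT. Because strand was ignored, a read pair in an exon of ZNF32 or of an antisense gene could come from either strand, and pairs on the exonic bases they share were left out of both.

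Genes of other families lay between the listed genes, and none of those tested was called. Between ZNF33B and ZNF487 the tested genes were BMS1, RET, CSGALNACT2, RASGEF1A and HNRNPF, with log2 fold changes from -0.19 to 0.03. BMS1, a ribosome assembly factor, chosen after its value was seen, had the smallest p of these, with a log2 fold change of -0.17 (SE 0.06, edgeR adjusted p = 0.249). HNRNPF, an RNA-binding protein and the nearest protein-coding neighbour of ZNF487, had a log2 fold change of -0.08 (SE 0.06, edgeR adjusted p = 0.552). In the 1.31 Mb between ZNF32 and RASSF4 lie 10 genes, of which only the pseudogene HNRNPA3P1 was tested, with a log2 fold change of -0.07 (SE 0.09). The other 9 had at most 12 counts in any sample. DEPP1, which lies within RASSF4 on the other strand, had 27 and 19 counts in the MORC2 KO samples, against 10 and 26 in WT. Its log2 fold change was 0.19 (SE 0.49). On the outer side of ZNF33B, beyond ZNF37BP, LINC00839 had a log2 fold change of 0.22 (SE 0.08, edgeR adjusted p = 0.257). Its counts were 1041 and 1073 in the MORC2 KO samples, against 870 and 754 in WT. The pseudogene CCNYL2 beside it had 40 and 62 counts against 30 and 36, a log2 fold change of 0.46 (SE 0.31).

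Among the genes between ZNF33B and ZNF487, SNORD3J lay nearest to ZNF487, 21345 bases away, with no counts. Among those between ZNF32 and RASSF4, TMEM72-AS1 lay nearest to RASSF4, 112 bases away. It is transcribed away from RASSF4 and had at most 2 counts in a sample.

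**Figure D3:**
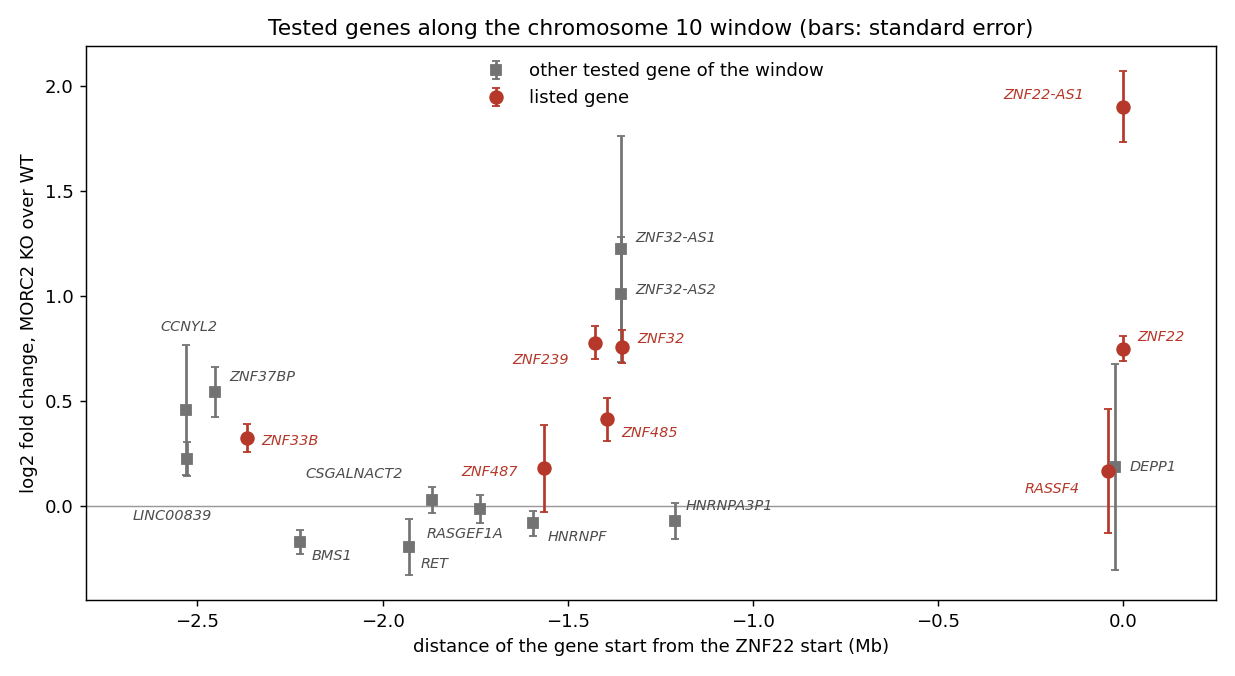
Log2 fold change of MORC2 KO over WT, with its standard error as a bar, against the distance of each gene's start from the start of ZNF22 in Mb, for the 8 listed genes (red) and the 12 other tested genes of the window (grey). The values of the 5 genes from BMS1 to HNRNPF and of HNRNPA3P1 lie between -0.19 and 0.03, with listed genes above them on both sides. CCNYL2, LINC00839 and DEPP1, also without ZNF symbols, lie at 0.46, 0.22 and 0.19.

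Zinc finger genes elsewhere on chromosome 10 were taken for comparison. Of 14 genes with ZNF symbols outside the window, 11 were tested, and none was called in edgeR or DESeq2, with 2 higher and 1 lower at an unadjusted p under 0.05 in edgeR, which 2387 of all 16675 tested genes passed. The median log2 fold change of these 11 genes was -0.02, with values from -0.32 to 0.29. The 3 with the smallest p were ZNF518A (0.19, SE 0.06, edgeR adjusted p = 0.212), ZNF37A and ZNF488 (-0.32, SE 0.11, edgeR adjusted p = 0.260). The values of ZNF22, ZNF239 and ZNF32 lay above all 11. The listed genes were chosen for their values and these were not, so the difference was not tested.

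Genes related by function were described from 2 lists. Of the 9 other RASSF genes, 7 were tested and none was called in edgeR or DESeq2, with 0 at an unadjusted p under 0.05 and log2 fold changes from -0.20 to 0.13. RASSF8 had the smallest p (0.13, SE 0.07, edgeR adjusted p = 0.388). Of 9 genes for the KRAB corepressor and the HUSH complex, all tested, 1 was called, against 0.618% of all tested genes. At an unadjusted p under 0.05 in edgeR 2 were higher and 0 lower, against 1358 and 1029 of all 16675 tested genes. The median log2 fold change over the list was -0.05. The gene called was TASOR, a HUSH subunit, with a log2 fold change of 0.78 (SE 0.07, edgeR adjusted p = 1.37e-04). TRIM28, the corepressor that KRAB domains bind, had a log2 fold change of -0.09 (SE 0.07, edgeR adjusted p = 0.565).

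The genes outside the window whose pattern was most like that of ZNF22 were found by the root mean square distance of centred log2 CPM over the 4 samples. They were SPATA41 (0.0207), ZNF232 (0.0358) and MCPH1-AS1 (0.0390), and 42 genes lay within 0.1. ZNF232 had 1432 and 1502 counts in the MORC2 KO samples, against 840 and 788 in WT. SPATA41 and MCPH1-AS1 were far weaker, with at most 38 and 15 counts in a sample. ZNF32 lay at a distance of 0.0266 and ZNF239 at 0.0510 from ZNF22, with 1 and 4 genes outside the window nearer. ZNF485 lay at 0.187, with 323 such genes nearer. ZNF33B lay at 0.232, ZNF487 at 0.312, RASSF4 at 0.388 and ZNF22-AS1 at 0.567, with 712, 2569, 8394 and 15863 nearer. These distances rest on 4 samples of the same 2 groups whose difference chose ZNF22.

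The size of the fold change of ZNF22, ZNF22-AS1, ZNF239 and ZNF32 varied little with the processing. Over 13 other fits, on the log2 scale, ZNF22 stayed between 0.68 and 0.81 and ZNF22-AS1 between 1.81 and 1.95. ZNF239 stayed between 0.74 and 0.82 and ZNF32 between 0.69 and 0.82. These values are those of the listed difference and are a description. ZNF487 varied from 0.01 to 0.38 and was called in none.

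**Figure D4:**
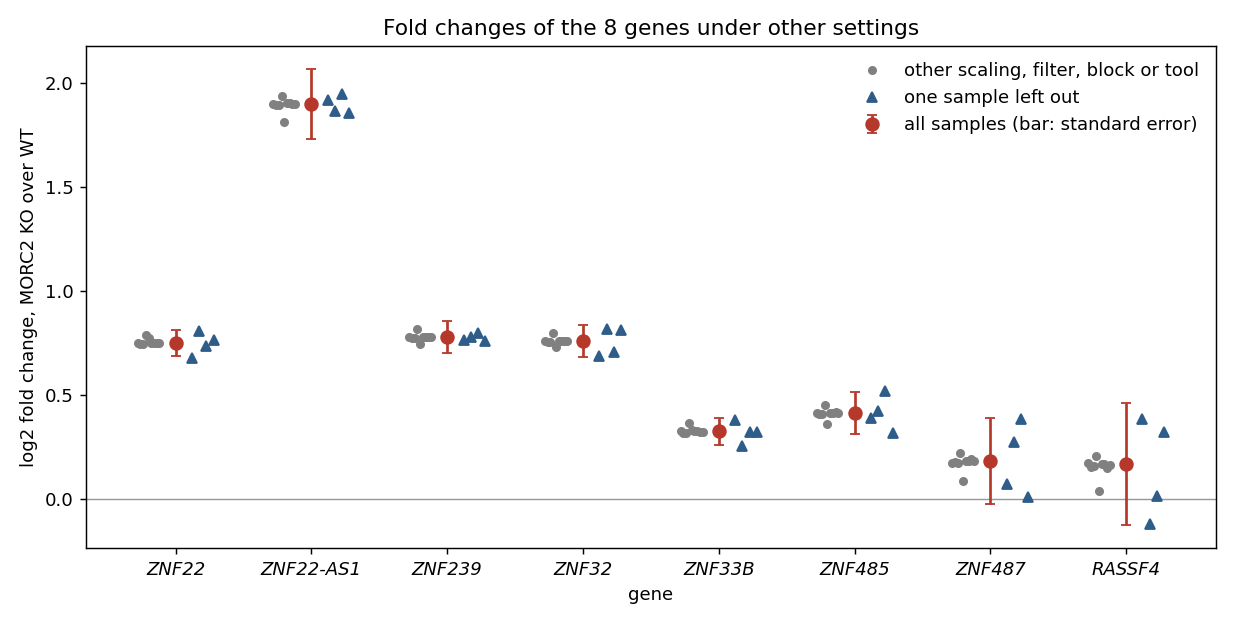
Log2 fold change of MORC2 KO over WT for the 8 genes with all samples (red, with the standard error as a bar), under other scaling, filters, blocks or tools (grey points) and with one sample left out (blue triangles). Only RASSF4 has a value under 0, of -0.12, and the values of ZNF22-AS1 lie at 1.81 or above.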

How the data were processed

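RNA-seq of 4 samples was used, 2 of MORC2 KO and 2 of WT, grouped by their labels. The authors used Subread 2.0.6 to align pairs of 65 bp reads to the T2T-CHM13v2.0 assembly, counted them per gene of strict RefSeq annotation with featureCounts and deposited raw counts. Per the file headers, multi-mapping reads were counted, with no option for strand or for reads on several genes. There were 0 columns of other samples. Symbols came from RefSeq by Entrez identifier (28763 of 28775 matched). Coordinates are those of T2T-CHM13v2.0, and those of promoters are on GRCh38.p14. No coordinates were converted. Genes were filtered with filterByExpr (16675 left), scaled with TMM and compared on genotype alone with edgeR 4.0.16 (older quasi-likelihood form, R 4.3.3) and Benjamini-Hochberg adjustment at 0.05, as in the methods. A gene is called when its adjusted p is under 0.05. Standard errors are the fold change over the square root of F. The fits were tested on simulated data. Replicates differed by more than counting noise (chi-square per degree of freedom 16.8 for MORC2 KO, 6.56 for WT, over genes with at least 20 counts). The genes, lists and tests were chosen with earlier results of these data known. Genes named besides the 8 were those that overlap or adjoin them, those called, those with the smallest p in each list and the 3 nearest to ZNF22 in pattern (log2 CPM, prior count 2). BMS1, RET, CSGALNACT2, RASGEF1A, HNRNPF, HNRNPA3P1, LINC00839, CCNYL2, ZNF33A and TRIM28 were named outside this rule, after their values were seen. A gene of the kidney list is not reported here.

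Alternatives were the newer edgeR form, DESeq2 1.42.0, RLE scaling, library size alone, loess offsets (span 0.3), other filters, a threshold of 0.10, a replicate block, unshared exonic bases and leaving out each sample, where a lone sample is assumed to vary like the other group.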

Additional observations from a re-analysis of the deposited data

How the results depend on the processing

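With all 4 samples 98 genes were higher and 5 lower in MORC2 KO. Without the filter on low counts the numbers were 463 and 182, and with the replicate block 237 and 42. Numbers shared by samples are not known to pair them (correlation of deviations -0.12). With crossed numbers, a fit chosen after seeing the data, 903 were higher and 809 lower. The lower genes were 17 in DESeq2 and 15 at an adjusted p under 0.10. With one sample left out, 88 to 1397 were higher and 9 to 2117 lower, the highest numbers without MORC2 KO replicate 1. Among the other genes of the window, where none was called in the main comparison, 2 were called higher without the filter and 2 with the replicate block (ZNF37BP and ZNF32-AS2 in both), 3 were higher and 1 lower with crossed numbers, and 1 to 2 were higher and 0 to 2 lower with one sample left out. Of the zinc finger genes elsewhere on chromosome 10, where none was called, 2 were called with crossed numbers and 0 to 6 with one sample left out, 6 without MORC2 KO replicate 1. The cause of these shifts was not tested. Of 104 fold changes of the 8 genes under other fits, 1 changed sign, that of RASSF4, which ran from -0.12 to 0.39 with one sample left out and was negative without MORC2 KO replicate 2. ZNF33B lost its call in 5 of 13 fits (the newer edgeR form, loess offsets, a minimum of 10 counts in each of the samples, and either WT sample left out). ZNF485 gained one in 5 (no filter, both blocks, and either MORC2 KO sample left out). No other call of the 8 genes changed. Per length levels over unshared bases moved by more than the replicate SD in 4 of 16 cases, those of ZNF32 and ZNF22-AS1. The precision rests on 2 samples a group, and for RASSF4 and ZNF487 also on their low counts.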
